A study of Mus musculus with 8 samples.

Results

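Mouse embryonic stem cells that overexpress Mbnl1 were compared with the wild-type cells they were made from, 2 libraries against 2, out of 8 libraries in the series. Of 43346 genes in the count files, 18055 passed a filter on low counts over all 8 libraries and were tested. They were described in 2 sets, as set out when the comparison was chosen: 971 genes that start at or beyond position 71719417 of chromosome 2 (mm10), called distal chromosome 2 here, and the other 17084 genes. The position was set with earlier results of these data known. Wild type is the parental line, of mixed 129xC57BL/6 background, with the genotype Rosa26Cre-ERT2/BirA-V5 (an inducible Cre recombinase and the biotin ligase BirA at the Rosa26 locus). The overexpression line has the same genotype and background and was in addition stably transfected with MBNL1::T2A::Puromycin, in which MBNL1 is joined to puromycin resistance through the self-cleaving T2A peptide. Both were grown on gelatin in serum with LIF, the cytokine that keeps such cells undifferentiated. The labels name neither the promoter of the transgene nor its site of insertion nor the number of clones. Differences between the transfected line and its parent that have nothing to do with MBNL1 cannot be told apart from effects of MBNL1. Whether the 2 libraries of a group are separate cultures or clones is not in the labels. The p-values then cover no more than the scatter between libraries of a group, estimated over all 8 libraries, which may be technical. The other 4 libraries (2 of a TRIM71 knockout and 2 of a homozygous Mbnl1 3'UTR mutant, both in the same Rosa26Cre-ERT2/BirA-V5 background) entered the fit to share the estimate of the spread.

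Muscleblind-like (MBNL) proteins bind RNA through CCCH zinc fingers and decide whether exons are kept or skipped. Their levels are low in pluripotent cells and higher in differentiated tissues, where they favour the splicing patterns of adult muscle and brain, and loss of their function by sequestration underlies myotonic dystrophy. MBNL proteins also bind 3' untranslated regions and affect the location and stability of mRNA. Counts per gene show how much RNA a gene gave and not which exons it held, so splicing was not analysed here.

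The wild-type libraries held 80640117 and 75056306 counts and the overexpression libraries 86336462 and 85068872. Levels are CPM, the share of a library's counts after scaling by TMM factors, and changes are log2 ratios of overexpression to wild type from edgeR's quasi-likelihood fit, with a gene called where the Benjamini-Hochberg adjusted p over all tested genes was under 0.05. The embryonic stem cell markers were high in both groups: 10 of 10 had counts in all 4 libraries, summing to 420322 and 397211 in wild type and 524327 and 516342 in overexpression. The 14 fibroblast or feeder markers summed to 5974 and 5446 counts in wild type and to 7882 and 8192 in overexpression, most of them from Vim, which stem cells express as well. Of the 9 tested, 5 were called higher (Vim, Thy1, Pdgfrb, Col1a1 and Fbn1, the last on distal chromosome 2) and 3 lower (Col1a2, Col3a1 and Lox). Thy1 had 198 and 177 counts in wild type and 379 and 357 in overexpression, Pdgfrb 94 and 102 against 217 and 212, and Col3a1 32 and 16 against 4 and 1. Lum stood at 0 in all 4 libraries, and Dcn, Postn and Fap had at most 2 counts in each. The part of such cells in the results was not tested. The 10 markers of 2-cell-like cells gave 2 to 6 counts per library in sum. The 2 loci that resemble ribosomal RNA took 4.82% and 2.88% of wild-type counts and 2.27% and 2.98% of overexpression counts. The biological coefficient of variation over the 8 libraries was 4.17%, which makes small changes callable.

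Mbnl1 (ENSMUSG00000027763.9, mm10 chromosome 3, 60472830 to 60629750, plus strand) had 25.9 and 26.1 CPM in the wild-type and 193 and 195 CPM in the overexpression libraries, a 7.45-fold rise (log2 change 2.90, SE 0.0408, adjusted p = 2.71e-18, edgeR). Reads of the transgene and of the endogenous gene are not told apart in these counts. Mbnl2 (ENSMUSG00000022139.12, chromosome 14, 120275669 to 120431697, plus strand), the paralog with largely overlapping targets, had more counts than Mbnl1 in wild type and fell 1.79-fold, from 65.1 and 66.2 to 38.2 and 35.1 CPM (adjusted p = 0.000145, edgeR). In both overexpression libraries Mbnl1 was above Mbnl2, on a scale that is not corrected for transcript length. Mbnl3, the family member best known from placenta and muscle precursors, stood at 6.37 and 5.99 and 6.86 and 5.91 CPM and did not pass (log2 change 0.05). The CELF proteins are splicing regulators that often act opposite to MBNL. Among them Celf5 rose from 6.47 and 6.59 to 11.2 and 11.3 CPM, and Celf6, under 1 CPM in each library, was also called higher but did not pass with DESeq2, without wild-type replicate 2 or without overexpression replicate 1, while Celf2 fell from 2.6 and 2.39 to 1.1 and 1.25 CPM. Trim71, the RNA-binding protein of the series title, stood at 629.9 and 628 CPM in wild type against 644 and 667 CPM, a log2 change of 0.06 (adjusted p = 0.162, edgeR). It did not pass here, and it passed under 2 other scalings, with log2 changes of 0.11 on library size alone and 0.09 with TMM factors computed without distal chromosome 2.

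Of the 18055 tested genes, 9901 (54.8%) were called, 4994 higher (27.7%) and 4907 lower (27.2%). Most changes were small: 3807 genes (21.1%) changed 1.5-fold or more, and 925 (5.12%) rose and 1093 (6.05%) fell 2-fold or more. Both overexpression libraries lay outside the range of the wild-type libraries for 13817 genes (76.5%). Outside distal chromosome 2, 9186 of 17084 genes (53.8%) were called, 4340 higher (25.4%) and 4846 lower (28.4%). This balance turned with the scaling: TMM factors computed without distal chromosome 2 gave 4763 higher and 4413 lower outside it, and library size alone 5085 higher and 3996 lower. Of the 17084 genes, 768 (4.5%) rose and 1069 (6.26%) fell 2-fold or more. Since 53.8% of them were called, a count of called members in a gene list is read below against these shares, and the list's median log2 change against -0.03, the median of all tested genes outside distal chromosome 2. The lists were written from general knowledge with earlier results of these data known.

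**Figure D1:**
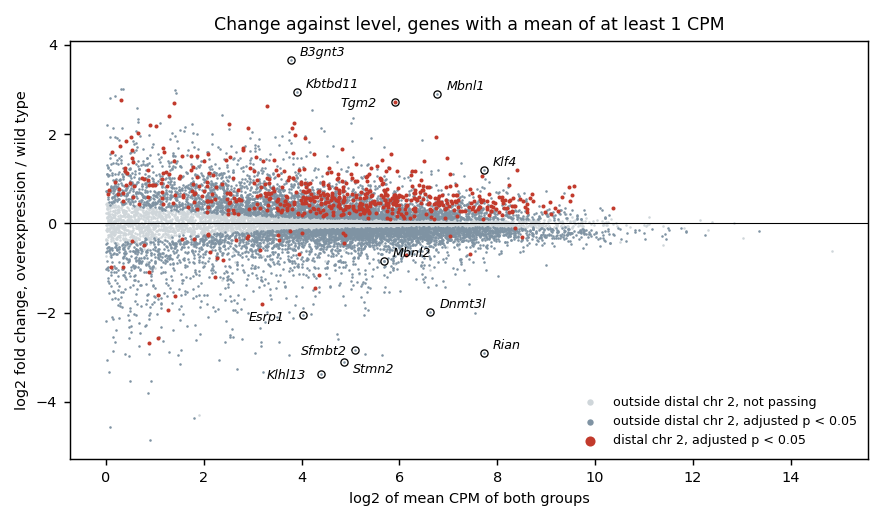
Log2 fold change of overexpression over wild type (vertical axis) against log2 of the mean CPM of both groups (horizontal axis), for tested genes with a mean of at least 1 CPM. Each point is a gene. Grey-blue points are called genes outside distal chromosome 2 and pale points are genes outside it that did not pass. Red points are called genes of distal chromosome 2, which lie mostly above 0. Distal genes that did not pass are not drawn. B3gnt3 (3.66) and Kbtbd11 (2.95) lie near the top with Mbnl1, and Klhl13 (-3.37) and Stmn2 (-3.11) near the bottom.

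The largest named rises outside distal chromosome 2 began with B3gnt3, which encodes a glycosyltransferase that extends carbohydrate chains. It went from 1.98 and 2.03 CPM to 26 and 24.8 CPM, a 12.7-fold rise (adjusted p = 1.75e-16, edgeR). Kbtbd11, a kelch-repeat gene, rose 7.72-fold from 3.51 and 3.37 to 26.1 and 27.1 CPM. Ceacam20, a cell adhesion molecule, rose 7.61-fold from below 1 CPM to 4.62 and 4.96 CPM. Ucp2, a carrier of the inner mitochondrial membrane, rose 5.14-fold from 10.9 and 10.8 to 58 and 53.4 CPM. Rapgef3, a cAMP-activated exchange factor for Rap GTPases also called Epac, rose 4.73-fold from 10.6 and 11.9 to 52.3 and 54 CPM. Tbx20 and Vax2, transcription factors of heart and of eye development, rose 4.36-fold to 33.4 and 35.1 CPM and 4.44-fold to 4.91 and 5.05 CPM. Fbxo2, a subunit of a ubiquitin ligase that recognises sugar chains, rose 4.21-fold to 36.6 and 34.2 CPM. Islr2, Zbtb4, Arhgap45, Paqr4 and Catsperz, at log2 changes of 2.06 to 2.53, are also among the 15 highest, as is Mbnl1 itself. Islr2 and Catsperz share exons with another annotated gene on the same strand, so their reads may be assigned to either. The overexpression and wild-type libraries did not overlap for any of these genes, which the naming rule required.

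The largest named falls were of the zinc finger gene Zfp951, from 6.36 and 7.02 to 0.301 and 0.345 CPM (20.6-fold), and of Pla2g4a, which encodes the phospholipase that releases arachidonic acid, from 3.85 and 2.96 to 0.201 and 0.288 CPM (13.9-fold). Klhl13, an X-linked substrate adaptor of a ubiquitin ligase, fell 10.4-fold from 39.7 and 36.6 to 3.52 and 3.85 CPM (adjusted p = 9.39e-17, edgeR), with exons shared with another gene. Sema3e, a secreted guidance cue, fell 9.98-fold from 17 and 16.5 to 1.74 and 1.61 CPM. Dtna, which encodes a component of the dystrophin complex of muscle, fell 9.57-fold from 12.4 and 10.8 to 1.16 and 1.25 CPM. Itpr2, a calcium release channel of the endoplasmic reticulum, fell 8.82-fold to 0.535 and 0.633 CPM, and Lpar4, a receptor for lysophosphatidic acid, fell 7.47-fold to 2.01 and 1.9 CPM. Plac8 and Fndc3c1 fell 8.33-fold and 7.69-fold. The other 6 of the 15 lowest are Stmn2, Zic2, Meg3, Mirg, Rian and Sfmbt2, which belong to lists described below. Abundant genes moved less: the largest losses in CPM outside distal chromosome 2 were in Eef1a1, a translation elongation factor (11172 and 11047 to 9923 and 9906 CPM, log2 change -0.16), mt-Co1, Rplp0, Rpsa, Actb and Rpl7. The largest gains in CPM were in Scd2, a fatty acid desaturase (389.5 and 384 to 649 and 624 CPM), Dppa5a, Aars, Top2a, Ccnd3 and Ctnna1. Scd2, Aars, Top2a, Eef1a1 and Rpsa share exons with other annotated genes.

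Imprinted genes, expressed from 1 parental copy, were mostly lower: outside distal chromosome 2, 20 of 27 tested members were lower and 2 higher (Mest and Igf2r), with a median log2 change of -0.72. Mest did not pass with DESeq2 or without either wild-type replicate or overexpression replicate 2. The count of higher ones came to 1 with DESeq2, without wild-type replicate 2 or without overexpression replicate 2. The strongest falls came from 2 imprinted clusters. In the Dlk1 to Dio3 region (mm10 chromosome 12, 109452823 to 110281097) the maternally expressed noncoding RNA Rian (chromosome 12, 109603940 to 109661716, plus strand) went from 354 and 392 CPM in wild type to 48.5 and 51.8 CPM in the overexpression libraries, a 7.44-fold fall (SE of the log2 change 0.0484, adjusted p = 1.13e-16, edgeR). Meg3, the first noncoding RNA of the same region, fell 7.71-fold from 82.2 and 95.2 to 11.3 and 11.7 CPM, and Mirg, its miRNA host transcript, 7.65-fold from 63.9 and 74.8 to 8.77 and 9.37 CPM. These 3 RNAs fell by nearly the same factor. The groups did not overlap for any of them, which the naming rule required. All 3 share exons with other annotated genes of the same strand. The paternally expressed genes there fell too: Dlk1, which encodes a Notch-like ligand, went from 2.5 and 2.68 to 0.602 and 0.829 CPM and Rtl1, of retrotransposon origin, from 0.519 and 0.305 to 0.134 and 0.0576 CPM. The second cluster is Sfmbt2 (chromosome 2, 10370510 to 10595253, proximal to the distal segment), a Polycomb gene whose intron holds a large rodent miRNA cluster. It fell 7.12-fold from 62.6 and 56.8 to 7.96 and 8.82 CPM (adjusted p = 3.05e-16, edgeR). Igf2, the fetal growth factor, stood at 17.3 and 13.9 and 2.26 and 2.37 CPM and the neighbouring H19 noncoding RNA at 47 and 44.9 and 8.53 and 6.71 CPM, both called lower. Snrpn, Peg3, Peg10, Impact and Cdkn1c were also called lower, by 0.49 to 1.37 on the log2 scale. Ndn, Zdbf2, Grb10, Kcnq1ot1 and Usp29 did not pass.

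Small RNA genes within these 2 clusters were lower as their hosts were. In the Sfmbt2 span 39 of 39 tested miRNA genes were called lower, with summed levels of 10.2 and 10.2 CPM in wild type and 0.937 and 0.748 CPM in overexpression. In the Dlk1 to Dio3 span 38 of 39 miRNA genes and 14 of 14 snoRNA genes were called lower, the miRNA genes summing to 22.9 and 27.1 CPM in wild type and to 3.04 and 3.48 CPM in overexpression. Of 104 miRNA genes tested elsewhere outside distal chromosome 2, 4 were lower and none higher. In all 3 sets these reads come from total RNA over the hairpin positions, so host transcripts and hairpins are not told apart, and mature miRNAs were not measured. All 38 tested Dlk1 to Dio3 miRNA genes with a Mir symbol were matched to mature sequences in RefSeq (GRCm38.p6), and those of the Sfmbt2 span had no entry. The 38 hairpins give 70 mature miRNAs with 65 different seeds, the bases 2 to 8 that pair with targets; 60 seeds occur once and 5 in a pair of miRNAs. The sequences below show the most abundant named hairpin, Mir127 (chromosome 12, 109592846 to 109592915, plus strand), which has a seed of its own, and members of 3 pairs that share a seed, with the seed in capitals, 5′ to 3′.
mmu-miR-127-3p: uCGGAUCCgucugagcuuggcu
mmu-miR-3070-3p: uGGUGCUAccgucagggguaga
mmu-miR-3070-2-3p: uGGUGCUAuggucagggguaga
mmu-miR-379-3p: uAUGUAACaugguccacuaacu
mmu-miR-411-3p: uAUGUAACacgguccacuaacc
mmu-miR-758-5p: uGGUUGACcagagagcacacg
mmu-miR-1197-5p: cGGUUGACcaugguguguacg
The lowered hairpins of this locus thus carry mostly unlike seeds. Counts over Mir127 were 2.18 and 2.57 CPM in wild type and 0.39 and 0.414 CPM in overexpression. Counts over Mir3070b, whose 3p arm shares its seed with that of Mir3070a, were 2.37 and 2.27 CPM against 0.279 and 0.334 CPM. All 7 mature sequences printed belong to hairpins called lower.

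Genes of naive pluripotency, the state before implantation, went in both directions: 11 of 22 were higher and 7 lower, with a median of 0.10, or 0.15 with library size as the only scaling. Klf4 (chromosome 4, 55527143 to 55532466, minus strand), a factor of the naive network induced by LIF, rose 2.3-fold from 125 and 132 to 301 and 291 CPM (SE of the log2 change 0.0418, adjusted p = 1.66e-13, edgeR). Tbx3, another such factor, rose 2.25-fold from 64.1 and 59 to 136 and 141 CPM. Klf2, another Krüppel-like factor of the naive network, went the other way and fell 2.02-fold from 199.6 and 188 to 95.2 and 96.3 CPM. Fbxo15 fell 1.83-fold to 56.4 and 56 CPM, and Dppa3, the maternal factor Stella, from 0.95 and 0.822 to 0.491 and 0.507 CPM, a low level throughout. Nanog rose 1.21-fold from 318 and 307 to 373 and 381 CPM, Dppa5a rose 1.6-fold, and Klf5 and Esrrb rose by 0.49 and 0.21 on the log2 scale. The core factors Pou5f1 and Sox2 did not pass, with log2 changes of -0.03 and 0.03.

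Genes of the formative and primed states, which follow on the way to implantation, were mostly lower: 14 of 19 fell and 3 rose (Foxd3, Etv4 and Etv5), with a median of -0.75 that came to -0.48 when genes under 1 CPM were left out. Zic2, a zinc finger factor of primed cells, fell 7.17-fold from 4.65 and 5.45 to 0.725 and 0.679 CPM, and its neighbour Zic5 3.04-fold to 2.22 and 1.89 CPM. Cdh2, the mesenchymal cadherin, fell 5.55-fold from 6.65 and 6.25 to 1.1 and 1.22 CPM (adjusted p = 3.88e-12, edgeR). Fgf5, the classic marker of primed cells, was near 1 CPM in wild type (1.11 and 0.756 CPM) and lower in overexpression (0.19 and 0.115 CPM), as was Lef1 (1.13 and 0.782 against 0.0669 and 0.184 CPM). Otx2 and Pou3f1 fell by 0.75 and 0.47 on the log2 scale. On distal chromosome 2 Dnmt3b was lower and Tcf15 higher (-0.28 and 1.09).

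Of the LIF and STAT3 pathway, which sustains self-renewal, 10 of 16 genes were higher and 2 lower, with a median of 0.29. Both STAT5 genes rose, Stat5b 2.43-fold from 6.54 and 6.64 to 16.7 and 15.3 CPM and Stat5a 2.33-fold to 3.32 and 3.78 CPM. The receptor Lifr rose by 0.69 and the kinases Jak2 and Tyk2 by 0.64 and 0.53 on the log2 scale. Pim1, a kinase gene that STAT3 activates, fell 2.5-fold from 126 and 133 to 53.7 and 50.2 CPM, Junb was also lower, and Stat3 itself did not pass (-0.05). Socs3, the feedback inhibitor, rose by 0.40 on the log2 scale, so targets of STAT3 in this list moved in both directions.

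**Figure D2:**
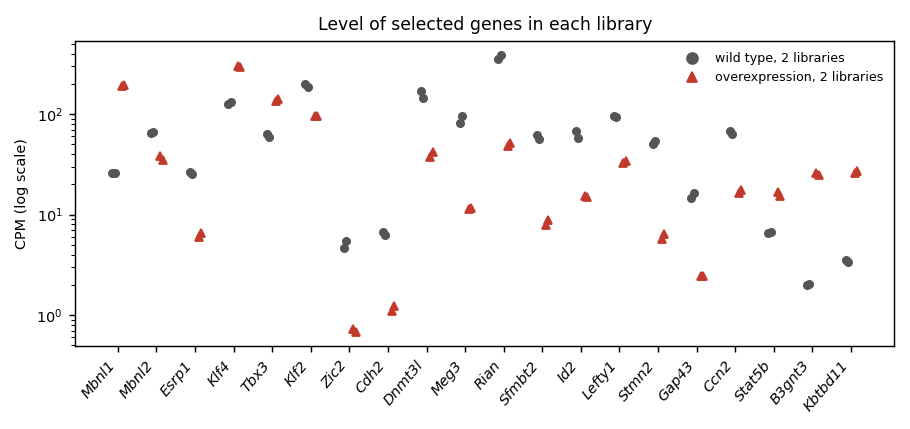
Level in CPM (log axis) of 20 genes described in the text, with 1 point per library: circles are the 2 wild-type libraries and triangles the 2 overexpression libraries. In each gene shown the 2 groups are apart and the libraries of a group lie close together, as for Mbnl1 (25.9 and 26.1 against 193 and 195 CPM) and Rian (354 and 392 against 48.5 and 51.8 CPM). All were picked from called genes, so this separation was set beforehand.

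Genes of early lineages were mostly lower or did not pass. In the primitive endoderm list 8 of 18 fell and 3 rose, with a median of -0.64. Lrp2, the endocytic receptor megalin, fell 2.89-fold from 80.2 and 83.8 to 32 and 24.8 CPM, and the defining factor Gata6 from 3.56 and 4.19 to 2.16 and 2.24 CPM. Sox7, Sparc and Lama1 were the 3 that rose, by 0.70, 0.56 and 0.81 on the log2 scale. In the trophoblast list 8 of 13 fell and Tead4 rose, with a median of -0.84. Fgfr2, the FGF receptor of trophoblast, fell 5.11-fold from 15.5 and 14.1 to 2.99 and 2.81 CPM, Krt18 1.95-fold to 15.8 and 15.5 CPM and Phlda2, an imprinted brake on placental growth, 1.41-fold to 61.2 and 66.3 CPM. Cdx2 and Gata3, which define the lineage, were under 1 CPM in each library and fell from 0.469 and 0.729 to 0.178 and 0.345 CPM and from 0.367 and 0.358 to 0.0669 and 0.138 CPM. The trophoblast counts came to 2 higher without wild-type replicate 2 and to 5 lower, with a median of -0.50, when genes under 1 CPM were left out. Cdx2 did not pass without wild-type replicate 2 or overexpression replicate 1. In bulk libraries, fewer cells of a type and less RNA per cell cannot be told apart. In the mesendoderm list 4 of 11 fell and 3 rose, with Sp5 down 2.61-fold and Cdx1 up 1.73-fold, to 10.6 and 11 CPM. Of its members at 1 CPM or more, 2 fell and 1 rose.

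Of the neural list 8 of 17 genes fell and 5 rose, with a median of -0.56 that came to -0.03 when genes under 1 CPM were left out, to -0.12 without wild-type replicate 1 and to -0.02 with the overexpression and wild-type libraries alone. Stmn2, a microtubule regulator of growing axons, fell 8.65-fold from 51 and 54 to 5.68 and 6.47 CPM (adjusted p = 1.75e-16, edgeR). Gap43, another growth cone protein, fell 6.32-fold from 14.7 and 16.2 to 2.44 and 2.45 CPM, Crmp1 3.17-fold to 5.81 and 6.49 CPM and Map2, the dendritic microtubule protein, 2.82-fold to 9.55 and 10.1 CPM. Others of the list went up: Ncam1, an adhesion molecule, rose by 0.94, Sox1, an early neural factor, by 0.83 and Mapt, which encodes tau, by 0.64 on the log2 scale.

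Signalling lists were read by role. In the Nodal and activin pathway 8 of 15 fell and 4 rose (median -0.30, or -0.18 with genes under 1 CPM left out and -0.17 with no filter). The ligand Nodal fell 1.46-fold from 77.6 and 73.6 to 51.7 and 51.7 CPM, and some of its targets and inhibitors fell further. Lefty1 fell 2.84-fold from 95.9 and 94.6 to 33 and 34.1 CPM and Lefty2 1.95-fold to 38.4 and 32.8 CPM. Skil, a SMAD corepressor, fell 2.27-fold from 355 and 369 to 158 and 161 CPM. Inhbb, Acvr1b, Smad7 and Tdgf1 rose, by 0.19 to 0.93 on the log2 scale. In the BMP pathway 9 of 15 fell and 4 rose (median -0.22, or -0.11 with genes under 1 CPM left out). The ligand Bmp4 rose 1.59-fold from 103 and 95.2 to 158 and 157 CPM. The target Id2, an inhibitor of helix-loop-helix factors, fell 4.12-fold from 67.2 and 57.3 to 15.1 and 15.1 CPM and Id3 fell to 24.6 and 28.7 CPM. Not all Id genes fell: of 4 BMP list members on distal chromosome 2, left out of these counts, 2 were higher and 0 lower. The higher ones were Id1 (0.28) and the ligand Bmp7 (1.40 on the log2 scale). Smad6, a feedback inhibitor called lower (-0.42), did not pass without wild-type replicate 1 or without overexpression replicate 2. The count of BMP genes lower came to 5 without wild-type replicate 1, without overexpression replicate 1 or without overexpression replicate 2.

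In the FGF and ERK feedback list 13 of 20 fell and 6 rose (median -0.24). Besides Fgfr2, the phosphatase gene Dusp4 fell 2.19-fold from 22.8 and 21.9 to 10 and 10.4 CPM, the receptor antagonist Il17rd 1.7-fold to 47.4 and 49.3 CPM and the ligand Fgf17 1.56-fold to 50 and 50.5 CPM. Fgf4, the main autocrine ligand, rose by 0.26 on the log2 scale, and 3 genes of the list were higher without overexpression replicate 2. Of immediate early genes 9 of 22 fell and 3 rose: Klf6 fell 2.92-fold from 78.5 and 75 to 26.7 and 25.8 CPM, Ier5 3.01-fold, Egr1 2.08-fold from 13.1 and 12 to 5.86 and 6.23 CPM and Fos 1.96-fold. Wnt targets were 7 higher and 7 lower of 20, with Axin2 up 1.58-fold and Sp5 and Wnt3 lower, and 2 of them were lower with genes under 1 CPM left out. Among genes that SRF and YAP drive, most of them of the actin cytoskeleton, 11 of 18 fell and 3 rose (median -0.31). Ccn2 fell 3.86-fold from 67.6 and 63.2 to 16.4 and 17.4 CPM, Ccn1 2.24-fold to 10.2 and 10.9 CPM, Tagln, a smooth muscle actin binder, 5.8-fold from 9.17 and 10.6 to 1.61 and 1.81 CPM and the tropomyosin Tpm1 1.8-fold to 48.1 and 45.8 CPM. Tagln2, Flna and Vcl rose.

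Other regulators of splicing went in both directions. Of 23 tissue-specific regulators 6 were higher and 6 lower (median 0.03). That is 52.2% called, close to the 53.8% of all tested genes outside distal chromosome 2. Esrp1, which drives epithelial splicing patterns, fell 4.18-fold from 26.8 and 25.6 to 6.01 and 6.55 CPM (adjusted p = 1.25e-14, edgeR). Ptbp2, the neuronal polypyrimidine tract binder, fell 1.86-fold from 51.1 and 56.6 to 29.7 and 28.3 CPM. Elavl3, a neuronal Hu protein gene that shares exons with another gene, rose 1.86-fold to 10.8 and 11.8 CPM, and Nova2 and Rbfox3 rose by 1.23 and 0.99 on the log2 scale. Rbfox3 did not pass with DESeq2 or without replicate 1 of either group. Ptbp1, Esrp2 and Elavl1 did not pass. Of 24 core SR and hnRNP genes 6 were lower and Srsf4 higher, none by 1.5-fold, so 29.2% were called against the same 53.8%. The lower ones were Hnrnpa1 (-0.47), Tra2a (-0.27), Hnrnpc (-0.20), Srsf3 (-0.18), Srsf5 and Srsf9. Srsf5 and Srsf9 did not pass with library size as the only scaling, which gave this list 5 higher and 4 lower. It had 4 higher with TMM factors computed without distal chromosome 2 and 3 with no filter or with the overexpression and wild-type libraries alone. Its count of higher genes was 0 without wild-type replicate 1 or overexpression replicate 1 and 3 without wild-type replicate 2. In a list of striated muscle genes tied to MBNL in muscle, 11 of 21 fell and 4 rose (median -0.30). Neb, which encodes nebulin, fell 4.04-fold from 2.66 and 3.36 to 0.714 and 0.771 CPM, Bin1 1.3-fold to 7.2 and 7.62 CPM, and Ryr1, the calcium channel of muscle, rose 1.69-fold from 9.49 and 10.5 to 17.5 and 16.2 CPM. Without wild-type replicate 2 the list had 2 higher.

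Cytosolic ribosomal protein genes were mostly lower by a small amount: 42 of 45 fell and 1 rose (Rps16), with a median of -0.25, and none changed 1.5-fold. They summed to 43977 and 43077 CPM in wild type and to 36177 and 37226 CPM in overexpression. Rps4x fell from 1823 and 1786 to 1341 and 1399 CPM and Rpl22 from 518 and 525 to 392 and 402 CPM. Many of these genes have processed pseudogenes that can share their reads. With library size as the only scaling 40 were lower and 1 higher. Of the Lin28 and let-7 target list, 11 of 19 fell, with a median of -0.23. Lin28a, which blocks let-7 maturation, fell 1.41-fold from 573 and 555 to 392 and 410.5 CPM, Mycn 2.21-fold from 201 and 188 to 88.9 and 87.3 CPM, and Ccnd2, a D-type cyclin, 3.53-fold from 46.5 and 45.1 to 12 and 14 CPM. In the miRNA pathway 4 of 16 were lower, among them Drosha (-0.35), and Ago2 and Tnrc6c were higher (0.45 and 0.36). The lower ones numbered 2 without overexpression replicate 1, with library size as the only scaling 5 were higher and 2 lower, and with TMM factors computed without distal chromosome 2 these were 4 and 2. Ago2 did not pass with the overexpression and wild-type libraries alone (adjusted p = 0.0526, edgeR).

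Of p53 targets 19 of 26 were lower and 4 higher (median -0.35). Pmaip1, the death gene Noxa, fell 2.2-fold from 111 and 131 to 58 and 51.7 CPM, Perp, an adhesion and death effector, 2.07-fold to 36.9 and 39.8 CPM and the kinase Plk2 2.02-fold to 28.8 and 29.5 CPM. Btg2, an antiproliferative gene, rose 1.68-fold from 37.4 and 38.5 to 63.7 and 63.8 CPM, and the cell cycle inhibitor Cdkn1a did not pass (-0.08). Without overexpression replicate 1, 2 targets were higher. The G1/S and replication list had 9 higher and 9 lower of 28, with the D cyclins apart: Ccnd3 rose 2.03-fold from 203 and 194 to 398 and 408 CPM while Ccnd2 fell. Of 18 mitosis genes 9 were higher, among them Mki67 (242 and 248 to 336 and 325 CPM), and 4 lower, or 2 lower without overexpression replicate 1 or with library size as the only scaling. In hypoxia and glycolysis 11 of 28 rose and 12 fell, with the largest named rises in isoenzyme genes: Pfkp, the platelet-type phosphofructokinase, rose 2-fold from 142 and 146 to 292 and 284 CPM and Hk1 1.89-fold to 77.4 and 69.3 CPM, while Ldha fell by 0.33 and Eno1 by 0.22 on the log2 scale. The ATF4 and unfolded protein response list had 10 higher and 7 lower of 24, with Atf4 up 1.42-fold and Slc7a5, an amino acid carrier, 1.44-fold to 403 and 409 CPM, and Cth down 1.91-fold. Cholesterol synthesis genes were 6 higher and 8 lower of 25, or 56% called, near the 53.8% of all tested genes outside distal chromosome 2.

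Of the DNA methylation genes 4 of 10 were higher and 3 lower. Dnmt3l (chromosome 10, 78041947 to 78063622, plus strand), the cofactor of the de novo methyltransferases, fell 3.94-fold from 169.7 and 146 to 37.8 and 42.4 CPM (SE of the log2 change 0.0866, adjusted p = 9.36e-07, edgeR), and Dnmt3a fell 1.26-fold. The demethylating dioxygenase gene Tet2 rose 1.62-fold from 225 and 221 to 360.3 and 360.3 CPM, and Tet1 and Tet3 were also higher, Tet3 not without replicate 2 of either group. Germline genes that DNA methylation is known to silence were 9 higher and 6 lower of 20 (median 0.16). Without wild-type replicate 1 they were 7 and 7 with a median of 0.00 (-0.0033), and without overexpression replicate 1 they were 7 and 7 with a median of 0.09. With genes under 1 CPM left out the median was 0.07. Tex11 rose 2.73-fold from 4.4 and 5.15 to 12.9 and 13.1 CPM, Mael 2.13-fold and Mov10l1 2.07-fold, while Dazl fell from 5.92 and 5.91 to 3.52 and 3.56 CPM. Of noncoding RNAs tied to pluripotency, 7 of 13 fell and none rose, with Lncenc1 down 4.36-fold from 23.5 and 22.3 to 5.28 and 5.23 CPM and Platr10 1.73-fold. In the matrix and integrin list 8 of 25 rose and 9 fell: Timp3, a protease inhibitor, fell 4.52-fold from 9.27 and 8.75 to 1.87 and 2.12 CPM and Col18a1 1.91-fold from 689 and 658 to 346 and 358 CPM, and Itgb3 rose 2.43-fold. The epithelial and mesenchymal list had 5 higher and 8 lower of 19, with Krt19 down 2.42-fold and Tgfb1 up 1.99-fold. Of 10 mitochondrially encoded genes only mt-Co1 passed, lower by 0.25 on the log2 scale. Without overexpression replicate 2 the lower ones numbered 2, and 1 was higher without wild-type replicate 1 or 2. With the overexpression and wild-type libraries alone 4 were higher and 2 lower.

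**Figure D3:**
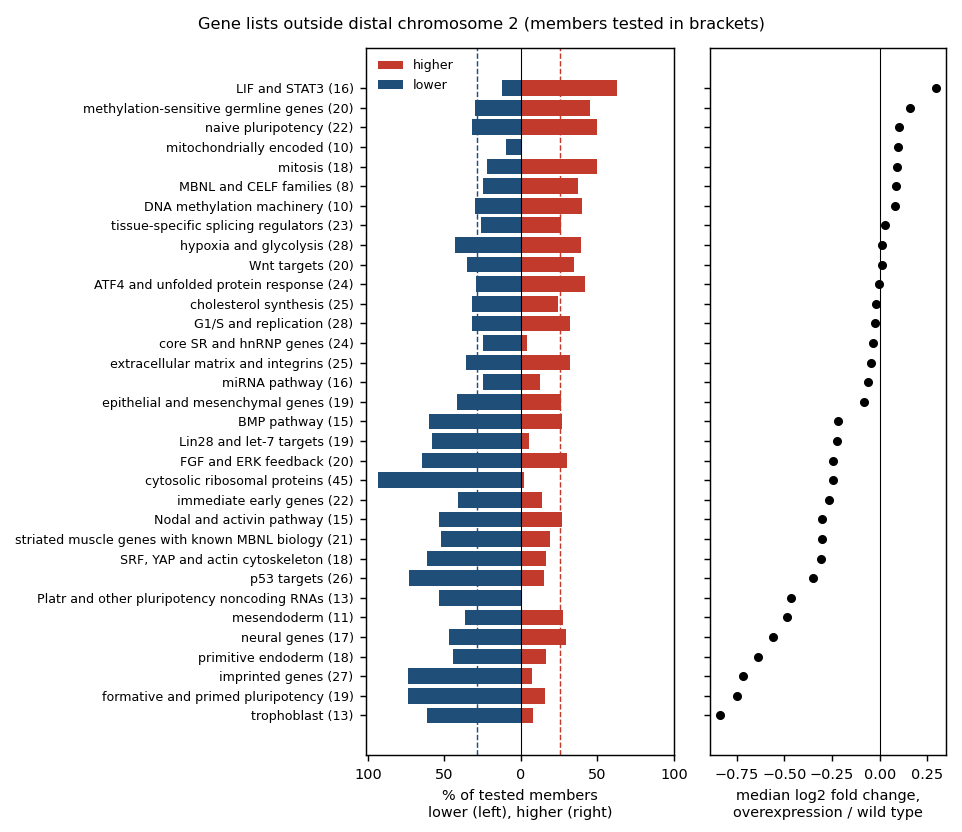
Gene lists outside distal chromosome 2, with the number of tested members in brackets. Left, the share of members called higher (red, right) and lower (blue, left), with dashed lines at 25.4% and 28.4%, the shares of all tested genes outside distal chromosome 2 called higher and lower. Right, the median log2 fold change. Lists run from the LIF and STAT3 pathway at the top (0.29) to trophoblast at the bottom (-0.84), and imprinted genes stand at -0.72.

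On distal chromosome 2 most genes were higher: 715 of 971 tested genes (73.6%) were called, 654 higher (67.4%) and 61 lower (6.28%). Over the 622 of them whose mean log2 CPM was 1 or more, the median log2 change was 0.49, with quartiles of 0.29 and 0.70, and 570 were above 0. The 307 genes of that level on proximal chromosome 2 had a median of 0.00 and the 10639 on other chromosomes a median of -0.02. On proximal chromosome 2, 71 of 527 tested genes (13.5%) were lower by 2-fold or more, 39 of them the miRNA genes within Sfmbt2. Most of the higher genes rose less than 2-fold: 227 of the 654 by 1.25-fold to 1.5-fold and 182 by 1.5-fold to 2-fold, against 130 (19.9% of the 654) by 2-fold to 4-fold and 27 (4.13%) by more. Of all 971 tested distal genes 157 (16.2%) rose and 24 (2.47%) fell 2-fold or more. The rise was seen at each level: among genes of 100 CPM or more 114 of 123 were higher and among those of 10 to 100 CPM 324 of 362. Fewer were called at low levels, 132 of 204 at 1 to 10 CPM and 84 of 282 under 1 CPM. The median log2 changes of these 2 classes were 0.55 and 0.41, against 0.43 at 100 CPM or more and 0.51 at 10 to 100 CPM. Each overexpression library showed it alike, with medians over the wild-type mean of 0.49 and 0.49, and the 4 pairings of an overexpression with a wild-type library gave 0.48 to 0.49. The region held 3.83% and 3.91% of all counts in wild type and 5.57% and 5.5% in overexpression. DNA copy number was not measured in these libraries.

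The shift along chromosome 2 began at the position that set the segment apart. Among genes of the same minimum level, the 6 before it included none called higher: Metap1d, the nearest, stood at 15 and 15.1 and 16.4 and 15.2 CPM, Hat1, a histone acetyltransferase, at 330.1 and 334 and 275 and 277 CPM and Slc25a12, a mitochondrial carrier, at 43.8 and 41 and 21.4 and 19.9 CPM. The first gene past it, Itga6 (chromosome 2, 71745616 to 71858416), which encodes an integrin subunit of the laminin receptor, stood at 203 and 206 CPM in wild type and 474 and 465 CPM in overexpression. The next, the kinase genes Pdk1 and Map3k20, stood at 258 and 259 against 329 and 327 CPM and at 34.6 and 34.4 against 45.8 and 45.5 CPM, and Cdca7 at 228 and 225 against 319.7 and 329.9 CPM. The split that best parted the log2 changes of 929 genes along the chromosome fell at Itga6, 26199 bases past that position. Since the position came from these data, the boundary values are a description. In windows of 10 Mb, the 12 beyond the boundary had medians of 0.29 to 0.62 out to the end of the chromosome, and the 7 before it medians of -0.27 to 0.10.

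**Figure D4:**
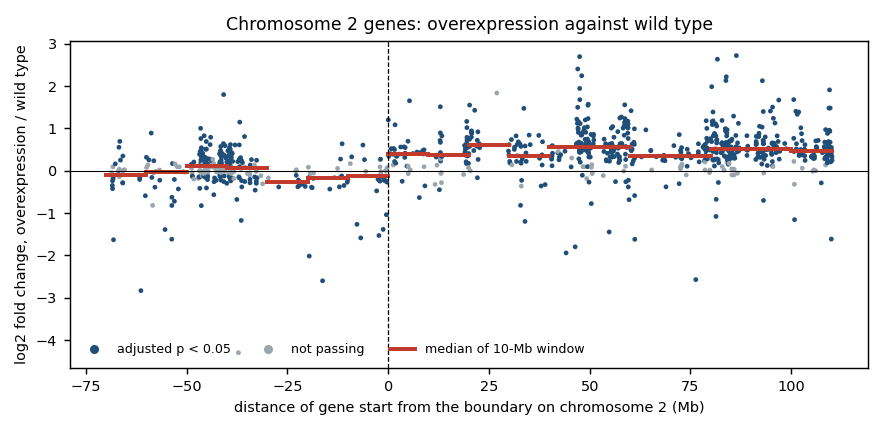
Log2 fold change of overexpression over wild type for 929 genes of chromosome 2 whose mean log2 CPM was 1 or more, against the distance of the gene start from the boundary in Mb. Blue points are called genes, grey points did not pass, and red lines are medians of 10-Mb windows that hold at least 10 genes, which lie between 0.35 and 0.62 beyond the boundary and between -0.27 and 0.10 before it.

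Some distal genes rose far more than the median log2 change of 0.49 on this segment. Tgm2 (chromosome 2, 158116402 to 158146436, minus strand), which encodes tissue transglutaminase, rose 6.59-fold from 15.3 and 16.5 to 117 and 92.3 CPM (adjusted p = 1.63e-05, edgeR). Nol4l rose 6.21-fold from 2.67 and 2.78 to 17.2 and 16.7 CPM, Itpka, an inositol trisphosphate kinase, 4.74-fold from 5.35 and 4.64 to 23.6 and 23.8 CPM and Acss2, an acetyl-CoA synthetase, 4.38-fold to 13.3 and 11.1 CPM. Ppp1r14d, Ccdc9b, Myh7b and Wfdc2 rose 4.36-fold to 6.48-fold. The 61 lower genes were led by Foxa2, a factor of endoderm, at 4.26 and 2.94 CPM in wild type and 0.636 and 0.576 CPM in overexpression. Meis2 and Pax6, homeobox and paired-box factors, fell 3.84-fold and 2.29-fold, Thbs1, a matrix glycoprotein that YAP drives, 3.47-fold from 13.3 and 15.1 to 4.2 and 3.95 CPM, and Tfap2c, a factor of trophoblast and germ cells, 2.23-fold from 29.8 and 27 to 13.3 and 12.2 CPM. Fermt1, Sox18 and Slc27a2 complete the 8 lowest. Of 55 members of the lists that were tested on this segment, 33 (60%) were higher and 11 (20%) lower, against 67.4% and 6.28% of all distal genes. Of the SRF and YAP list both members there were lower, and of 4 neural genes 2 were lower and 1 higher. Bub1, Bub1b, Aurka and Tpx2 of the mitosis list and E2f1, Pcna and Rbl1 of the G1/S list were higher by 0.37 to 0.77 on the log2 scale. Srsf6, Hnrnpa3 and Celf1 were higher too. These members were left out of the list counts above.

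The other lines of the series did not show the shift. The same 622 genes had median levels over the wild-type mean of 0.01 and 0.00 in the 2 knockout libraries and of 0.03 and 0.01 in the 2 3'UTR mutant libraries. In the knockout 219 of the 971 distal genes were higher than in wild type (22.6%) and 194 lower (20%), and in the mutant 79 were higher (8.14%) and 55 lower (5.66%). The shares of all tested genes called in those 2 comparisons are not reported here. At a mean log2 CPM of 1 or more, 50.5% of distal genes and 52% of those on other chromosomes were above 0 in the knockout. In the mutant these shares were 56.9% and 52.9%. Set against those lines instead of wild type, overexpression had 683 distal genes higher (70.3%) and 56 lower (5.77%) than the knockout, and 674 higher (69.4%) and 43 lower (4.43%) than the mutant. These comparisons share the overexpression libraries with the main one. Outside distal chromosome 2, overexpression had 4233 genes higher (24.8%) and 4918 lower (28.8%) than the knockout, and 4148 higher (24.3%) and 4538 lower (26.6%) than the mutant. For named genes the values side by side were as follows. Rian stood -2.68 from the knockout and -2.71 from the mutant on the log2 scale, Sfmbt2 -1.76 and -2.19, and Dnmt3l -0.06 and -1.77. Klf4 stood 0.43 and 0.68, Esrp1 -2.74 and -1.78, Stmn2 -3.02 and 0.59, and B3gnt3 0.99 and 2.78. Whether genes elsewhere differ because of MBNL1, of distal chromosome 2 or of another feature of the line cannot be told apart, since all are present in the same 2 libraries.

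The X chromosome moved less and the other way. Over 387 genes its median level over the wild-type mean was -0.15 in each overexpression library, between -0.02 and 0.02 in the knockout and mutant libraries, and 17.8% of its genes were higher and 49.1% lower in overexpression. The other autosomes had medians of -0.09 (chromosome 13) to 0.03 (chromosome 17). Their shares of lower genes ran from 27.1% (chromosome 17) to 42.5% (chromosome 13). Their shares of higher genes ran from 19.3% (chromosome 13) to 36.5% (chromosome 11), so chromosome 13 came close to the X chromosome in both. Chromosome 2 as a whole stood at 0.35.

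**Figure D5:**
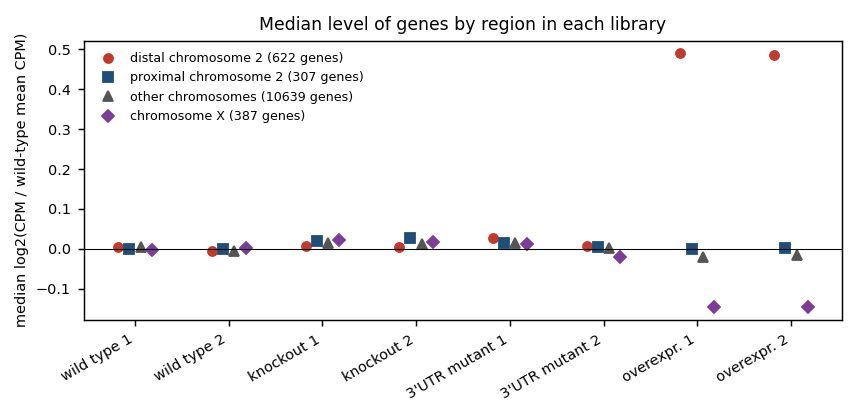
Median of log2 CPM over the wild-type mean CPM (vertical axis) for genes of 4 regions in each of the 8 libraries, each with an average log2 CPM of 1 or more. Distal chromosome 2 stands at 0.49 in both overexpression libraries and within 0.03 of 0 elsewhere, and chromosome X at -0.15 in the overexpression libraries.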

How the data were processed

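Total RNA of 8 libraries was sequenced on a stranded protocol with paired-end reads, per the labels' protocols. STAR 2.5.0 and the build mm10 are named in the submitters' processing notes. The authors deposited whole-number counts for each gene without normalization; which annotation release and strand setting they used is not given in the sources. Of 43346 gene identifiers, 42462 were matched without version suffix to GENCODE M21 symbols and mm10 positions and 884 were not. Reads of genes that share exons on a strand may be assigned to either.

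Tests used R 4.3.3, edgeR 4.0.16 and limma 3.58.1. Genes kept by filterByExpr (minimum count 10, total 15) numbered 18055 of 27979 with a count. TMM scaling and a quasi-likelihood model with robust dispersions covered 4 groups of 2 libraries (4 residual degrees of freedom). P-values were adjusted by Benjamini-Hochberg over all tested genes. An exact permutation test of 2 against 2 libraries cannot go below 0.333. Total counts were 75056306 to 86508533 per library. The wild-type libraries differed with a chi-square of 30.7 per degree of freedom and the overexpression libraries with 10.1 (counting error alone gives 1), so neither pair was 1 library deposited again. The medians per gene were 1.33 and 1.2, where counting error alone gives under 1, so a minority of genes raised the first values. Replicate numbers did not pair the libraries across groups. The fit was tested on simulated data.

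The set of genes, the lists and the rule for naming genes were chosen with earlier results of these data known. It names the 15 highest and 15 lowest called genes outside distal chromosome 2 and 8 and 8 on it (mean log2 CPM of at least 1, groups not overlapping), Mbnl1, Mbnl2, Mbnl3 and Trim71, up to 4 called members per list and the 6 largest CPM changes per direction. Other genes, among them Dlk1, Rtl1, Igf2, H19, Fgf5, Lef1, Celf2 and the genes at the chromosome 2 boundary, were named after their values were seen. Some genes that the rule names are not reported here. No test of a list was made. Alternatives were DESeq2 1.42.0, other scalings and filters, fewer libraries and a replicate block.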

Additional observations from a re-analysis of the deposited data

How the results depend on the processing

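The number of called genes kept within 1.5 times of 4994 higher and 4907 lower under 12 alternatives, which gave 4202 to 5755 higher and 3916 to 5075 lower. With library size as the only scaling the split was 5755 higher and 4047 lower, with the median of all genes shifted by 0.05 on the log2 scale, and DESeq2 called 4315 higher and 4254 lower. Genes under 1 CPM carried much of the 2-fold count: with them left out, 851 genes in all, 750 outside distal chromosome 2 and 101 on it changed 2-fold or more. The median log2 change of distal chromosome 2 was 0.55 with library size only, 0.52 with TMM factors computed without that segment, 0.49 (0.487) with genes of at least 1 CPM and 0.50 with the overexpression and wild-type libraries alone. Leaving out 1 library at a time gave 0.486 to 0.498. Of 171 named genes besides Mbnl1, 2038 of 2052 values kept direction and side of the threshold. The naming rule took mostly genes already called, so this share was largely set beforehand and does not speak for other genes. Elavl4, Dab2, Ago2 and Smad6 lost their call under at least 1 alternative. So did Celf6, Cdx2, Col1a1, Col1a2, Mest, Peg10, Rbfox3, Srsf4, Srsf5, Srsf9 and Tet3 among list members named outside the rule. Trim71 gained a call under 2 alternatives. Mbnl3, not called, stood at -0.055 without overexpression replicate 1 and at 0.15 without replicate 2.

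Replicate numbers gave no pairing: differences between replicates 1 and 2 correlated across genes at -0.034 between overexpression and wild type. With a replicate block, 4948 genes were higher and 4867 lower, and Dab2 did not pass (adjusted p = 0.0503, edgeR).

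Depth limits the genes under 1 CPM, where 643 of 4975 genes outside distal chromosome 2 were called higher and 902 lower.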

Other observations

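Classes of RNA outside distal chromosome 2 differed in how often they were called. Of all tested genes there 25.4% were higher and 28.4% lower, and of those under 1 CPM 12.9% and 18.1%. Of 901 processed pseudogenes, 111 were lower (12.3%) and 15 higher (1.66%), with a median log2 change of -0.19. Of 190 snoRNA genes outside the Dlk1 to Dio3 span, 30 were lower and 2 higher. Of 70 snRNA genes 13 were lower (18.6%) and 1 higher (1.43%). Of 422 antisense RNA genes 70 were higher (16.6%) and 39 lower (9.24%), and of 422 lincRNA genes 63 were higher (14.9%) and 86 lower (20.4%). Protein-coding genes were 4076 higher (29.5%) and 4328 lower (31.3%) of 13835. The lower share of each of these classes but the protein-coding one was thus under that of all tested genes. It was above it for miRNA genes: of 182 tested outside distal chromosome 2, 81 were lower (44.5%) and 0 higher. These include the miRNA genes of the 2 imprinted clusters.

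On distal chromosome 2 itself 4 of 62 processed pseudogenes were higher and 7 lower, against 602 and 48 of 784 protein-coding genes. Of all 971 tested genes there 67.4% were higher and 6.28% lower. Of 9901 called genes, 861 carry only a clone or model name and were left unnamed.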
